A study of Homo sapiens with 12 samples.

Results

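The genes described here are 10 genes of the ATF4 branch of the integrated stress response, taken by name: ATF4 itself and DDIT3, DDIT4, TRIB3, ASNS, CHAC1, PSAT1, PHGDH, PPP1R15A and VLDLR. All 10 were found among the 14029 genes tested. They were read in poly(A) RNA of ES-2 cells, a line from a human ovarian cancer, from cells carrying an SRMS shRNA and from cells carrying a control vector, both given 15 µM cisplatin for 8 hours. SRMS is a non-receptor tyrosine kinase, and cisplatin is a platinum drug that crosslinks DNA. Each group had 3 libraries, and since the labels do not tie these to separate cultures, a p-value here reflects the spread among libraries, which may be technical. The labels also list both constructs in PBS, and these 6 samples are not analysed here. Every difference below is therefore between constructs under cisplatin, and no response to cisplatin was measured. The labels name 1 shRNA and no second hairpin or rescue.

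The integrated stress response starts with kinases that phosphorylate the translation factor eIF2, which slows protein synthesis as a whole while translation of the ATF4 mRNA goes up. ATF4 is a bZIP transcription factor that switches on genes for amino acid synthesis, uptake and redox balance, together with DDIT3, which encodes the transcription factor CHOP, and PPP1R15A, which encodes GADD34 and brings the phosphatase back to eIF2. Because ATF4 is controlled largely at translation, its mRNA level is not a reading of its protein, which was not measured here.

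SRMS mRNA, the target of the hairpin, showed no fall in libraries carrying its label. SRMS signal (reads recovered per effective library size, on a scale like that of CPM) was 0.328, 1.07 and 0.863 in those libraries, against 0.0669, 0.306 and 0.819 in vector libraries, on 9, 39 and 27 reads against 2, 14 and 47. The log2 fold change of SRMS was 0.52 (95% interval -0.15 to 1.19, limma adjusted p = 0.168), and a two-sided exact permutation test gave p = 0.2, where 0.1 is the smallest p possible. Blocking on replicate number gave limma adjusted p = 0.00782 for SRMS, with more of it under the label SRMS shRNA, and it was also under the threshold without SRMS shRNA replicate 1 (0.79, limma adjusted p = 0.0245), without vector replicate 3 (0.84, limma adjusted p = 0.0281) and without replicate 1 of both groups (0.51, limma adjusted p = 0.0331). SRMS was not called under the other alternatives, among them the block with the length and GC trend removed (0.24, limma adjusted p = 0.207). Directions below follow the labels. Whether the labels of the groups are exchanged, which would turn every direction, was not tested, nor was whether the hairpin acts on the transcripts counted, and with so few reads a fall in SRMS may not be detectable.

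The libraries held 28009232 to 38072051 recovered reads with the label SRMS shRNA and 29072793 to 56855428 with the vector. Differences were widespread: limma called 26.6% of all genes higher and 30.2% lower under the label SRMS shRNA, at an adjusted p under 0.05. The groups did not overlap in 29.7% of genes toward higher and 32.9% toward lower values. Aligning the libraries on their median log2 value (median alignment) raised the median log2 fold change of all genes from 0.0031 to 0.16, so every fold change below is about 0.16 higher on that scale. Of the epithelial and ovarian carcinoma markers reported here, KRT7, KRT8, KRT18, PAX8 and WT1 were in the table, with KRT18 higher, at 1015 ± 6.27 in the libraries labelled SRMS shRNA and 875.5 ± 5.02 in vector libraries (mean ± SD, n = 3 each), and KRT7 lower, at 543 ± 32.8 and 697 ± 28.5 in the same order. WT1 was also lower (-0.80) and KRT8 higher (0.18), while EPCAM, CDH1, KRT19 and MUC16 were not listed. PAX8, on only 4 to 10 reads per library, overlapped between the groups and was not called (limma adjusted p = 0.248). All 4 mesenchymal markers were listed, with VIM and FN1 higher and CDH2 and ZEB1 lower. Some markers of other cell types differed between the groups as well. Of 5 leukocyte markers 3 were listed, with a summed signal of 3.49 to 4.13 in the libraries labelled SRMS shRNA and 0.830 to 1.41 in vector libraries, CD14 and LYZ being called higher, and the defining PTPRC and CD3E not listed. Of 4 endothelial markers 3 were listed, at 5.88 to 8.36 and 14.8 to 16.8 in the same order, with CDH5 lower and VWF not listed. The lower sum was that of CDH5 alone (6.12 ± 0.763 and 15.2 ± 1.09). PECAM1 was higher without overlap but not called (0.393 and 0.211, limma adjusted p = 0.0745), and KDR overlapped (0.649 and 0.672). Of 5 fibroblast markers 3 were listed, with COL1A1 lower, at 816 ± 3.24 and 1238 ± 1.77, and DCN and LUM not listed. PDGFRB (0.827 and 0.671) and COL1A2, on 0 to 7 reads, overlapped between the groups and were not called. Mitochondrial transcripts took 5.40% to 6.12% of reads in the libraries labelled SRMS shRNA and 4.15% to 4.83% in vector libraries, without overlap. The part of these differences in the results below was not tested. In bulk RNA, fewer cells of a kind and less RNA per cell cannot be told apart.

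The promoters that carry a binding sequence of this pathway come first, since they include a gene that was higher and a gene that was lower. ATF4 dimers bind composite elements with the core TGATGNAA, and factors of the CREB/ATF family bind the palindrome TGACGTCA. Both were searched on both strands in RefSeq windows from 250 bases before to 50 after the transcript start (GRCh38.p14). All 10 genes matched the table, with 15 windows. TGATGNAA lay in a window of ASNS and of CHAC1, and is held by 3.62% of all 35116 windows. TGACGTCA lay in the window of PPP1R15A, and is held by 1.85%. These matches describe the sequence only, and a window without a match says nothing of elements elsewhere. The windows are chr7:97872359-97872658 on the minus strand for ASNS, chr15:40953221-40953520 on the plus strand for CHAC1 and chr19:48872171-48872470 on the plus strand for PPP1R15A, printed 5′ to 3′ along the gene with the match in capitals.
ASNS: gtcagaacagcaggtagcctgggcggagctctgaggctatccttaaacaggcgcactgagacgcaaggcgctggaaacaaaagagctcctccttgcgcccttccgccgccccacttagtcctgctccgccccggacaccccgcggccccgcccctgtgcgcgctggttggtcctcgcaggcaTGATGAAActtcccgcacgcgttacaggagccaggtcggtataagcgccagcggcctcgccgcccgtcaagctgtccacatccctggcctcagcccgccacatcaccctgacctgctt
CHAC1: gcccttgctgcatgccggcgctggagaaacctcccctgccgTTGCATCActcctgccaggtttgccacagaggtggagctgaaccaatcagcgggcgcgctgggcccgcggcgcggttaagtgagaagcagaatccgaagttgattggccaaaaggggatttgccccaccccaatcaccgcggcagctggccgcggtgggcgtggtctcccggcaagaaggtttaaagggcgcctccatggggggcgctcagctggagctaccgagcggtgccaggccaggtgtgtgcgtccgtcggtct
PPP1R15A: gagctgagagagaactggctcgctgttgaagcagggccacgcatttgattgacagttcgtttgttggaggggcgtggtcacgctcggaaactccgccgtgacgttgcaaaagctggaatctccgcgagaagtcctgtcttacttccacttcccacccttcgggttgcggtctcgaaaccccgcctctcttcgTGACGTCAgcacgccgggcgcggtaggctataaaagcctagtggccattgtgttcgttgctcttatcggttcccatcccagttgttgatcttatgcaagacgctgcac
The ASNS match TGATGAAA reads along the gene and starts 68 bases before the transcript start. The CHAC1 match is on the other strand, so it is read here as TTGCATCA, and starts 209 bases before it. The PPP1R15A palindrome starts 58 bases before it. A second RefSeq window for ASNS, from 97872116 to 97872415, held neither sequence.

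Of the 10 genes, 6 rose, 3 fell and 1 did not pass the test in the libraries labelled SRMS shRNA (60.0% and 30.0%, beside 26.6% and 30.2% of all genes). ATF4, DDIT3, PPP1R15A, ASNS, PHGDH and PSAT1 were the ones that rose, DDIT4, CHAC1 and VLDLR fell, and TRIB3 was not called. The differences were modest, with ratios of means from 0.674 for DDIT4 to 1.37 for DDIT3. The median log2 fold change of the 10 was 0.14, beside 0.0031 for all genes. By edgeR and by DESeq2 on recovered reads the count was also 6 higher and 3 lower, beside 27.7% and 29.7% of all genes by edgeR and 25.6% and 27.0% by DESeq2. With the replicate block it was 6 and 4 (31.0% and 34.3% of all genes), with median alignment 6 and 2 (44.6% and 17.9%) and with quantile scaling 6 and 3 (28.3% and 26.3%).

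**Figure D1:**
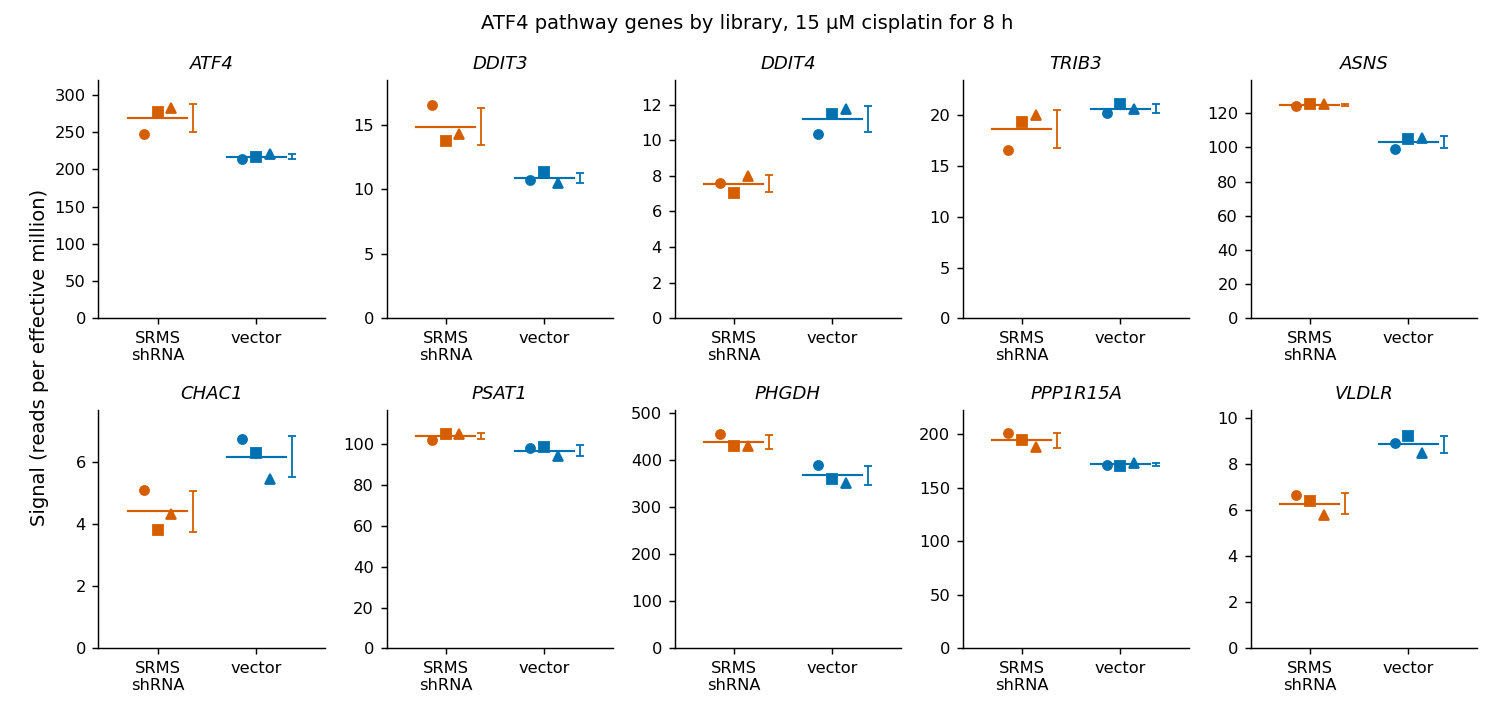
Signal of each of the 10 genes (reads scaled by effective library size, linear axes from 0) in the 3 libraries labelled SRMS shRNA (orange, left) and the 3 vector libraries (blue, right), with circles, squares and triangles for replicates 1, 2 and 3, a line at the mean and a bar of ± 1 SD. The groups do not overlap in any of the 10 genes, beside 29.7% of all genes without overlap toward higher and 32.9% toward lower values. The lines are closest for PSAT1 (104 and 96.9) and TRIB3 (18.7 and 20.7).

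ATF4, the transcription factor at the head of the branch, was higher in the libraries labelled SRMS shRNA. Its gene (ENSG00000128272) lies on the plus strand of chromosome 22, from 39519695 to 39522685 in GRCh38. ATF4 signal was 248, 277 and 282.5 in replicates 1, 2 and 3 labelled SRMS shRNA, against 214, 217 and 221 in the vector replicates. The groups did not overlap, and the lowest library labelled SRMS shRNA was replicate 1. On the log2 scale ATF4 differed by 0.31 (SE 0.0475, 95% interval 0.20 to 0.41, limma adjusted p = 0.000335). It was 0.27 to 0.36 with single libraries left out, and called each time.

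DDIT3, which encodes CHOP, a bZIP factor linked to death under prolonged stress, showed the largest increase of the 10. Its gene (ENSG00000175197) spans 57516588 to 57521737 of chromosome 12 on the minus strand. MARS1, from 57475445 to 57517569 on the plus strand, overlaps one end of it. MARS1 signal was 324 ± 2.10 in the libraries labelled SRMS shRNA and 295 ± 0.952 in vector libraries. Whether reads of MARS1 were counted for DDIT3 was not tested. DDIT3 signal was 16.5, 13.8 and 14.3 in the libraries labelled SRMS shRNA, against 10.8, 11.3 and 10.5 in vector libraries. Replicate 1 labelled SRMS shRNA stood highest, and the groups did not overlap. This gave a log2 fold change of 0.43 (SE 0.0806, limma adjusted p = 0.00111), on 322 to 604 reads per library. DDIT3 was no longer called once the trend of all genes with transcript length and GC content was removed (0.16, limma adjusted p = 0.147, and 0.0613 with the replicate block as well).

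PPP1R15A encodes GADD34, the subunit that directs protein phosphatase 1 to eIF2 and ends the response. Its gene (ENSG00000087074) is on chromosome 19, plus strand, from 48872392 to 48876057. PPP1R15A signal was 201, 194 and 188 in the libraries labelled SRMS shRNA, against 171, 171 and 174 in vector libraries. Every library labelled SRMS shRNA was above every vector library. Its log2 fold change was 0.18 (SE 0.0355, limma adjusted p = 0.00177), and 0.065 (limma adjusted p = 0.159) after removal of the length and GC trend, or limma adjusted p = 0.0194 with the replicate block as well.

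Of the enzymes of serine and asparagine synthesis, PHGDH, PSAT1 and ASNS were higher. PSPH, which makes the last step of serine synthesis and is not among the 10, had 15.9 ± 0.654 in the libraries labelled SRMS shRNA and 17.9 ± 1.27 in vector libraries and was not called (-0.16, limma adjusted p = 0.0761). PHGDH (ENSG00000092621, chromosome 1, 119648411 to 119744226, plus strand) makes the first committed step of serine synthesis. PHGDH signal was 455, 430 and 429 in the libraries labelled SRMS shRNA, against 390, 361 and 352 in vector libraries, and replicate 1 was highest in both groups. Its log2 fold change was 0.25 (SE 0.0436, limma adjusted p = 0.00064).

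PSAT1 (ENSG00000135069, chromosome 9, 78297143 to 78330093, plus strand) makes the next step of serine synthesis. PSAT1 signal was 102, 105.0 and 105 in the libraries labelled SRMS shRNA, against 98.3, 98.4 and 94.1 in vector libraries. The gap between the groups was narrow, and this was the smallest of the called differences. Its log2 fold change was 0.10 (SE 0.0365, limma adjusted p = 0.0367). The PSAT1 call was lost without SRMS shRNA replicate 2 (limma adjusted p = 0.103), SRMS shRNA replicate 3 (0.104), vector replicate 2 (0.0676) or vector replicate 3 (0.159), with replicates 2 and 3 averaged (0.215) and after removal of the length and GC trend (0.134), though not with the replicate block added to that removal (limma adjusted p = 0.0379).

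ASNS (ENSG00000070669, chromosome 7, 97852118 to 97872542, minus strand) makes asparagine from aspartate and glutamine, and its promoter carries the TGATGAAA shown above. ASNS signal was 124, 125.5 and 125 in the libraries labelled SRMS shRNA, against 99.0, 105 and 105 in vector libraries. The libraries labelled SRMS shRNA were nearly equal and all above the vector. ASNS had a log2 fold change of 0.28 (SE 0.0371, 95% interval 0.19 to 0.36), with the smallest p of the 10 genes (limma adjusted p = 0.000129). The annotation names 4 pseudogenes each for ATF4, ASNS and PSAT1, and how shared reads were counted is not given in the sources used here.

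DDIT4, CHAC1 and VLDLR went the other way. DDIT4 (ENSG00000168209, chromosome 10, 72273920 to 72276036, plus strand) encodes REDD1, an inhibitor of the growth kinase mTORC1. DDIT4 signal was 7.63, 7.04 and 7.99 in the libraries labelled SRMS shRNA, against 10.4, 11.5 and 11.8 in vector libraries. The groups lay well apart, with a log2 fold change of -0.54 (SE 0.0829, 95% interval -0.72 to -0.36, limma adjusted p = 0.000318).

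CHAC1 (ENSG00000128965, chromosome 15, 40952962 to 40956519, plus strand) encodes an enzyme that breaks down glutathione, and its promoter carries TTGCATCA. CHAC1 signal was 5.11, 3.82 and 4.32 in the libraries labelled SRMS shRNA, against 6.76, 6.31 and 5.47 in vector libraries, on 135 to 314 reads. The highest library labelled SRMS shRNA was just under the lowest vector library. CHAC1 had a log2 fold change of -0.45 (SE 0.118, limma adjusted p = 0.00856), and -0.29 (limma adjusted p = 0.0526) under median alignment. After removal of the length and GC trend it was -0.68 (limma adjusted p = 0.00109).

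VLDLR (ENSG00000147852, chromosome 9, 2621834 to 2660053, plus strand) encodes a lipoprotein receptor that stress through PERK is known to induce. VLDLR signal was 6.68, 6.41 and 5.79 in the libraries labelled SRMS shRNA, against 8.93, 9.21 and 8.47 in vector libraries. No library labelled SRMS shRNA reached the vector range. The log2 fold change was -0.47 (SE 0.0847, limma adjusted p = 0.000922), and -0.20 (limma adjusted p = 0.0594) after removal of the length and GC trend and no block, or limma adjusted p = 0.0464 with the block as well.

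TRIB3 (ENSG00000101255, chromosome 20, 362835 to 397559, plus strand) encodes a pseudokinase that restrains AKT and feeds back on ATF4. TRIB3 signal was 16.6, 19.4 and 20.1 in the libraries labelled SRMS shRNA, against 20.3, 21.1 and 20.6 in vector libraries. The groups did not overlap, though replicate 3 labelled SRMS shRNA lay next to the vector range. TRIB3 had a log2 fold change of -0.15 (SE 0.0743, 95% interval -0.31 to 0.016), which limma did not call (adjusted p = 0.11). It was called with the replicate block (limma adjusted p = 0.029) and after removal of the length and GC trend (-0.26, limma adjusted p = 0.00567), and was 0.011 under median alignment and 0.0031 with quantile scaling.

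**Figure D2:**
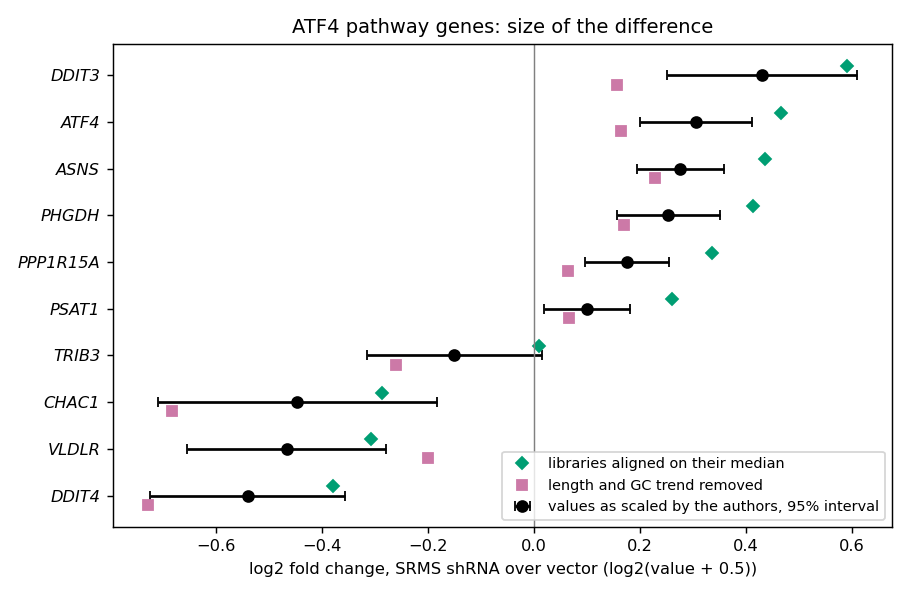
Log2 fold change of the libraries labelled SRMS shRNA over vector libraries on the scale of log2(value + 0.5), with the authors' scaling and 95% intervals (black), with libraries aligned on their median (green diamonds) and after removal of the length and GC trend (pink squares). Alignment moves every gene up, TRIB3 from -0.15 to 0.011, while removal of the trend brings DDIT3 to 0.16 and ATF4 to 0.16.

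Transcript length and GC content differed among the 10 genes, from 940 nt for DDIT3 to 9163 nt for VLDLR and from 42.3% GC for PSAT1 to 61.3% for CHAC1. Removing the trend over all genes lowered the log2 fold change of DDIT3 by 0.27, to 0.16 from 0.43. It lowered that of ATF4 by 0.14, PPP1R15A by 0.11, PHGDH by 0.084 and ASNS by 0.047. For CHAC1 and DDIT4 the trend pointed up, by 0.24 and 0.19, against the direction of their change. For VLDLR, the longest, it was -0.27. With the trend removed and no block, 3 of the 10 rose (ATF4, ASNS and PHGDH) and 3 fell (DDIT4, CHAC1 and TRIB3), beside 23.7% and 28.0% of all genes. With the block as well, 5 rose and 4 fell, beside 28.6% and 32.6% of all genes.

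Levels of different genes were compared per kb of transcript. PHGDH was highest, with 170 ± 5.69 signal per kb in the libraries labelled SRMS shRNA and 142 ± 7.64 in vector libraries (SD, n = 3 each). ATF4 came next with 133 ± 9.12 and 108 ± 1.76 signal per kb. PPP1R15A had 81.75 ± 2.81 and 72.3 ± 0.644, ASNS 53.0 ± 0.275 and 43.8 ± 1.51, and PSAT1 47.5 ± 0.754 and 44.3 ± 1.13, in each case with the SRMS shRNA value first and the vector value second. ASNS was above PSAT1 in the libraries labelled SRMS shRNA without overlap, whereas in vector libraries PSAT1 had the higher mean and the ranges overlapped.

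The transducers DDIT3 and TRIB3 lay lower, at 15.8 ± 1.55 and 7.47 ± 0.738 signal per kb in the libraries labelled SRMS shRNA, against 11.6 ± 0.438 and 8.28 ± 0.178 in vector libraries. DDIT4 had 4.32 ± 0.275 signal per kb in the libraries labelled SRMS shRNA and 6.41 ± 0.423 in vector libraries. CHAC1 had 2.83 ± 0.416 in the libraries labelled SRMS shRNA and 3.96 ± 0.418 in vector libraries. VLDLR was lowest, at 0.687 ± 0.0498 in the libraries labelled SRMS shRNA and 0.968 ± 0.0410 in vector libraries. Over all 6 libraries the ranges of PHGDH and ATF4, ASNS and PSAT1, TRIB3 and DDIT4, and DDIT4 and CHAC1 overlapped, and those of other neighbours did not. The 5 genes of highest level per kb all rose, as did DDIT3, and the 4 of lowest level did not.

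**Figure D3:**
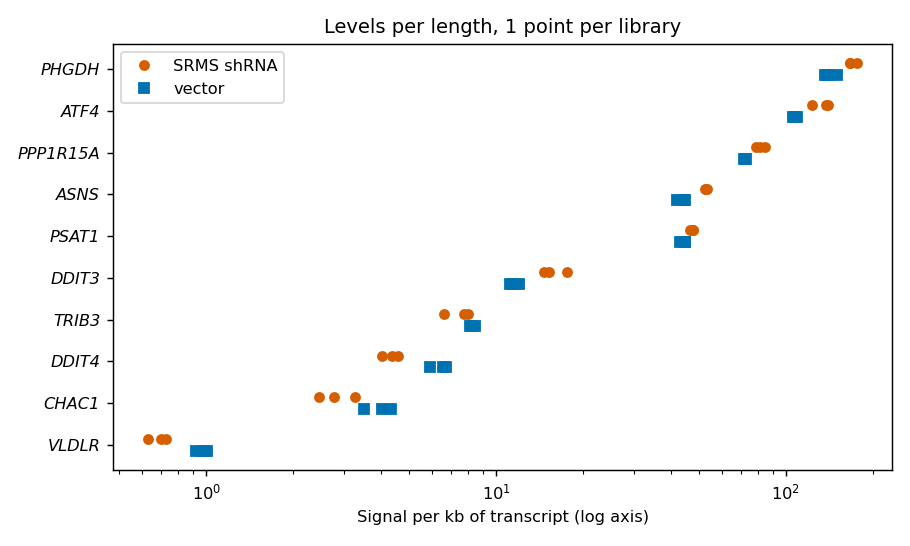
Signal per kb of transcript (log axis) of the 10 genes in each library labelled SRMS shRNA (orange circles) and each vector library (blue squares), ordered by their mean. The genes span a range from 0.632 for VLDLR to 176 for PHGDH.

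Reads of each gene per 100 ATF4 reads in the same library do not depend on how libraries are scaled. By this measure 5 of the other 9 genes were lower without overlap in the libraries labelled SRMS shRNA, 0 were higher and 4 overlapped, beside 56.8% of all other genes lower and 9.18% higher without overlap. The share of the 9 that were lower was thus close to that of all other genes. TRIB3 had 6.67, 6.98 and 7.10 reads per 100 ATF4 reads in the libraries labelled SRMS shRNA, against 9.47, 9.76 and 9.32 in vector libraries. DDIT4 had 3.07, 2.54 and 2.83, against 4.84, 5.29 and 5.33 in vector libraries.

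CHAC1 had 2.06, 1.38 and 1.53 reads per 100 ATF4 reads in the libraries labelled SRMS shRNA, against 3.16, 2.91 and 2.47 in vector libraries. VLDLR had 2.69, 2.31 and 2.05, against 4.17, 4.25 and 3.83 in vector libraries. PSAT1 had 41.1, 37.9 and 37.1, against 45.9, 45.4 and 42.5 in vector libraries, so its own increase was smaller than that of ATF4. DDIT3, ASNS, PHGDH and PPP1R15A overlapped between groups: ASNS averaged 46.5 ± 3.07 in the libraries labelled SRMS shRNA and 47.4 ± 1.11 in vector libraries, and DDIT3 5.56 ± 0.947 and 5.01 ± 0.235 in the same order (SD, n = 3 each).

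**Figure D4:**
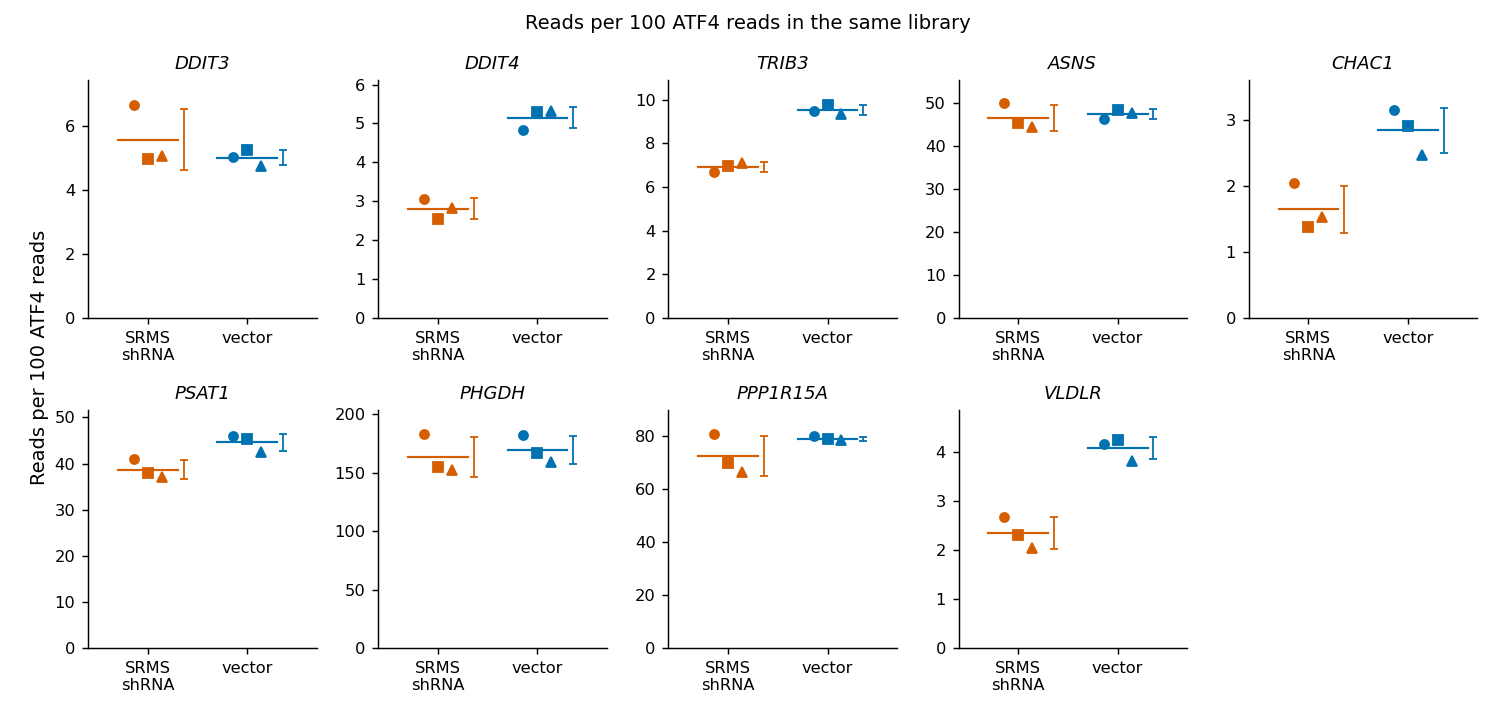
Reads of 9 genes per 100 ATF4 reads in the same library (linear axes from 0), in libraries labelled SRMS shRNA (orange, left) and vector libraries (blue, right), with the mean as a line and ± 1 SD as a bar. DDIT4, TRIB3, CHAC1, PSAT1 and VLDLR are lower without overlap, and DDIT3, ASNS, PHGDH and PPP1R15A overlap.

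The wider pathway was read in 11 lists that hold 124 other genes, of which 118 were in the table. Of these 43 rose and 36 fell (36.4% and 30.5%, beside 26.6% and 30.2% of all genes), with a median log2 fold change of 0.029. Under median alignment, 63 rose and 18 fell, beside 44.6% and 17.9% of all genes, and after removal of the length and GC trend 44 rose and 29 fell, beside 23.7% and 28.0%. Most lists held genes of both directions. Sizes given below as a rise or fall by a number are log2 fold changes of genes that limma called, and signals are means ± SD of 3 libraries.

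Of the 4 kinases that phosphorylate eIF2, 0 rose and 3 fell (0% and 75.0%, beside 26.6% and 30.2% of all genes). EIF2AK3, which encodes PERK, the sensor of the endoplasmic reticulum, fell to 7.08 ± 0.719 in the libraries labelled SRMS shRNA, against 11.9 ± 1.01 in vector libraries (log2 fold change -0.71, limma adjusted p = 0.000129). EIF2AK2, the kinase PKR that senses double-stranded RNA, had 31.3 ± 3.43 in the libraries labelled SRMS shRNA and 45.2 ± 0.501 in vector libraries (-0.53). EIF2AK1, the heme-regulated kinase, fell by 0.14, and EIF2AK4, which encodes the amino acid sensor GCN2, had 0.034 and was not called. Under median alignment the list had 1 higher and 2 lower, beside 44.6% and 17.9% of all genes. Its median log2 fold change was then -0.17 against -0.33. Removing the length and GC trend also left 1 higher and 2 lower (beside 23.7% and 28.0% of all genes), with a median of -0.12.

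Of 12 genes for eIF2, its exchange factor eIF2B and its phosphatase, 7 rose and 2 fell (58.3% and 16.7%, beside 26.6% and 30.2% of all genes). Their median log2 fold change was 0.16. EIF2B4, a subunit of eIF2B, had 99.4 ± 1.195 in the libraries labelled SRMS shRNA and 79.4 ± 0.990 in vector libraries, and EIF2B1 had a log2 fold change of 0.25. PPP1CA, a catalytic subunit of protein phosphatase 1, rose by 0.37. PPP1R15B, the constitutive relative of PPP1R15A, fell to 53.3 ± 2.95 in the libraries labelled SRMS shRNA, against 64.8 ± 2.92 in vector libraries, and PPP1CC fell by 0.11.

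Among 8 regulators of the kinases 3 rose and 3 fell (37.5% and 37.5%, beside 26.6% and 30.2% of all genes). NCK1, an adaptor linked to eIF2 dephosphorylation, fell by 0.78, and DNAJC3, the chaperone P58IPK that inhibits PKR and PERK, fell by 0.52. GCN1, which activates GCN2, fell by 0.16. PRKRA, an activator of PKR, IMPACT, an inhibitor of GCN2 activation, and TMED2, a cargo receptor, rose by 0.17, 0.17 and 0.083. With single libraries left out 0 to 2 of the 8 rose and 3 fell, while 3195 to 3891 of all genes rose. With replicates 2 and 3 averaged 0 of the 8 rose and 2 fell. Calls were fewer over all 14029 genes too in that setting, at 2781 higher and 3287 lower, against 3736 and 4233 without averaging.

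Partners and regulators of ATF4 moved both ways. Of 10 in the table, 3 rose and 4 fell (30.0% and 40.0%, beside 26.6% and 30.2% of all genes). ATF3, a bZIP factor induced by ATF4, had 51.1 ± 4.595 in the libraries labelled SRMS shRNA and 24.0 ± 1.63 in vector libraries (log2 fold change 1.07, limma adjusted p = 1.59e-06). BATF3 and NUPR1, a stress-induced chromatin protein, rose by 0.89 and 0.85, both at signals below 5 in every library. EP300, the acetyltransferase that binds and stabilizes ATF4, fell to 31.5 ± 0.225 in the libraries labelled SRMS shRNA, against 62.4 ± 0.413 in vector libraries. FBXW11, which encodes an F-box protein of the βTrCP pair that marks ATF4 for degradation, fell by 0.87, its relative BTRC fell by 0.47, and NFE2L2, the partner NRF2, fell by 0.32.

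Of 12 further genes of amino acid synthesis 5 rose and 2 fell (41.7% and 16.7%, beside 26.6% and 30.2% of all genes). PYCR1 of proline synthesis had 173 ± 2.40 in the libraries labelled SRMS shRNA and 135 ± 2.19 in vector libraries, GOT1, an aspartate aminotransferase, rose by 0.33 and CBS of cysteine synthesis by 0.41, while SHMT1 fell by 0.21 and GPT2 fell by 0.18. The list's median log2 fold change, -0.037, was 0.12 under median alignment and 0.15 after removal of the length and GC trend, so its sign depended on the processing.

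Of 11 amino acid transporters 3 rose and 6 fell (27.3% and 54.5%, beside 26.6% and 30.2% of all genes). SLC38A2, a neutral amino acid transporter, fell to 159 ± 6.52 in the libraries labelled SRMS shRNA, against 286 ± 2.08 in vector libraries. SLC7A11, the cystine transporter, fell by 1.14 on the log2 scale and SLC38A1 fell by 0.43. SLC3A2, the heavy chain that pairs with SLC7A11, rose to 602.5 ± 9.99 in the libraries labelled SRMS shRNA, against 450.2 ± 13.7 in vector libraries, while SLC6A9, a glycine transporter, rose by 0.65 and SLC1A5, a glutamine carrier, by 0.15. The counts were 4 and 5 under both median alignment (beside 44.6% and 17.9% of all genes) and quantile scaling (28.3% and 26.3%).

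The 13 genes for tRNA charging and export were even, with 4 higher and 4 lower (30.8% and 30.8%, beside 26.6% and 30.2% of all genes). XPOT, the tRNA exporter, had 165 ± 7.82 in the libraries labelled SRMS shRNA and 267 ± 1.09 in vector libraries. CARS1 fell by 0.43 and EPRS1 fell by 0.23, while WARS1, MARS1 and YARS1 rose by 0.21, 0.14 and 0.13. The balance was 8 to 2 with median alignment (beside 44.6% and 17.9% of all genes) and 2 to 5 with quantile scaling (28.3% and 26.3%). It was 6 to 2 after removal of the length and GC trend (23.7% and 28.0%).

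Of 12 stress, growth and secreted targets of ATF4 that were measured, 4 rose and 1 fell (33.3% and 8.33%, beside 26.6% and 30.2% of all genes). GADD45A, a growth arrest protein that p53 also induces, had 152 ± 6.31 in the libraries labelled SRMS shRNA and 94.0 ± 2.84 in vector libraries. LONP1, a mitochondrial protease, rose by 0.34 and STC2, a secreted glycoprotein, by 0.29, whereas SESN2, which like DDIT4 restrains mTORC1, fell by 0.30.

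Of 11 autophagy genes 4 rose and 3 fell (36.4% and 27.3%, beside 26.6% and 30.2% of all genes). MAP1LC3B, ATG7 and BECN1 rose by 0.34, 0.29 and 0.21. ULK1, the kinase that starts autophagy, was down at -0.57, and ATG3 and ATG5 at -0.14 and -0.18. The 6 CHOP targets had 0 higher and 4 lower (0% and 66.7%, beside 26.6% and 30.2% of all genes). ERO1A, an oxidase of the endoplasmic reticulum, fell by 0.22, CAV1 fell by 0.16 and the death receptor gene TNFRSF10B fell by 0.25. Under median alignment 0 of the CHOP targets were higher and 0 lower, beside 44.6% and 17.9% of all genes. The list's median log2 fold change was then -0.05 against -0.21.

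The other branches of the unfolded protein response, IRE1 and ATF6, had 10 of 20 genes higher and 5 lower. MANF, a secreted factor of the endoplasmic reticulum, had 224 ± 17.6 in the libraries labelled SRMS shRNA and 148 ± 10.4 in vector libraries, and XBP1, the factor that IRE1 splices, and PDIA6 rose by 0.33 and 0.32. SEL1L and SEC24D fell by 0.64 and 0.35, as did DNAJC3, also named above. With quantile scaling the balance was 8 to 7, beside 28.3% and 26.3% of all genes.

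After removal of the length and GC trend the genes higher and lower numbered 7 and 1 for eIF2, eIF2B and the phosphatase, 2 and 2 for the kinase regulators, 4 and 3 for the partners of ATF4, 5 and 3 for amino acid synthesis, and 3 and 6 for the transporters. They numbered 4 and 2 for the stress, growth and secreted targets, 5 and 2 for autophagy, 0 and 4 for the CHOP targets, and 7 and 3 for IRE1 and ATF6. In that setting 23.7% of all genes were higher and 28.0% lower.

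**Figure D5:**
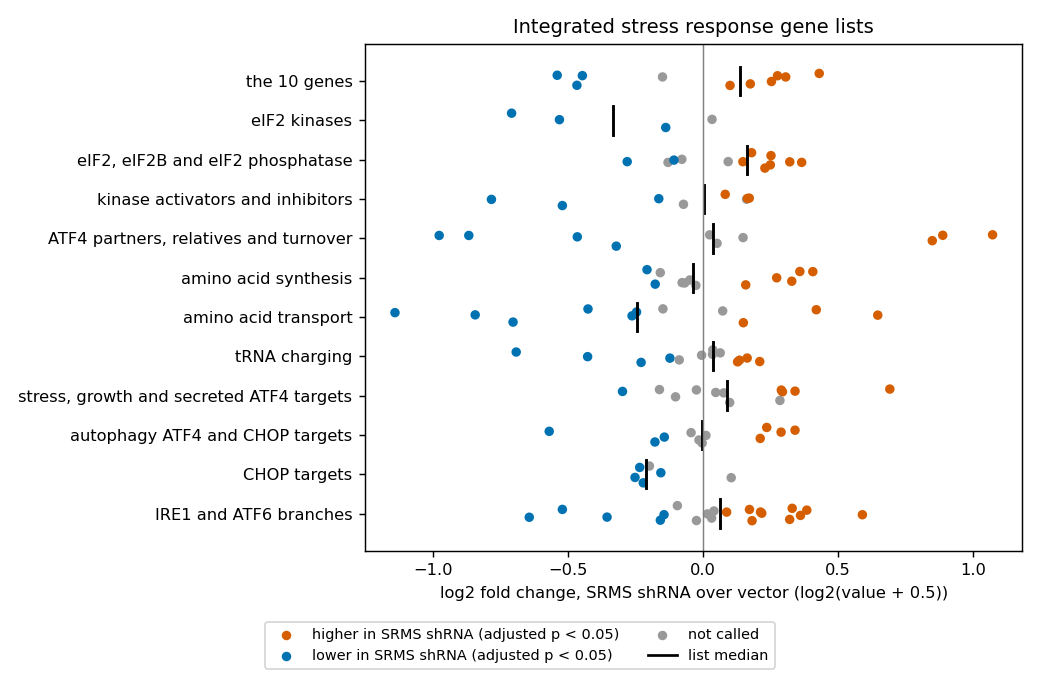
Log2 fold change (libraries labelled SRMS shRNA over vector libraries) of each gene in the 10-gene set and the 11 lists, 1 point per gene, orange for higher and blue for lower at a limma adjusted p under 0.05, grey for not called, with the list median as a black line. The eIF2 kinases lie at or left of 0.034, and the partners of ATF4 spread from -0.98 to 1.07.

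Profiles over the 6 libraries were compared by the root mean square difference of log2(value + 0.5), centred on each gene, among 8422 genes with a mean signal of at least 10. Among the nearest to ATF4 were CHCHD2 (0.0197) and TMEM9B (0.0201). CHCHD2 signal was 465 ± 36.8 in the libraries labelled SRMS shRNA and 371 ± 8.90 in vector libraries. Nearest to DDIT3 were CD27 (0.031), PHYKPL (0.032) and TSPOAP1 (0.0385), all with replicate 1 highest among the libraries labelled SRMS shRNA, as in DDIT3. With 6 libraries in 2 groups, these distances mostly reflect the size of the group difference.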

How the data were processed

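Poly(A) RNA of ES-2 cells was prepared with a stranded TruSeq protocol and read in pairs on a NovaSeq instrument, per the labels' protocols. The authors used FastQC, cutadapt, HISAT2, StringTie and edgeR with GRCh38, per the submitters' processing notes. Neither their versions nor the strand setting or the filter against low genes is stated in the labels. The deposited values are a linear signal, although their table is named log CPM: whole reads over an effective library size. Expressed in units of a single read, 99.99% or more of each library's values were whole to within 0.1.

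The 13 rows for pseudoautosomal copies on Y were left out of the 14042, leaving 14029 genes, 14007 with a symbol. Coordinates, transcript length and GC content come from GENCODE 29 (GRCh38), 1 transcript per gene, and promoter sequences from RefSeq (GRCh38.p14).

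The test was limma 3.58.1 (R 4.3.3) on log2(value + 0.5) with a trend of variance on mean, adjusted by Benjamini-Hochberg over all genes, at 0.05. Fold changes on that scale understate low genes. Alternatives included edgeR 4.0.16 and DESeq2 1.42.0 on recovered reads, other scalings, pseudocounts and filters, removal by spline of the trend with length and GC content, and libraries left out. The fit was tested on simulated data with independent libraries, few changed genes and no trend with length or GC content. That test cannot show how the fit handles likeness among replicates, widespread change or such a trend. Deviations of same-numbered libraries from their group means correlated across genes with r of 0.309, 0.106 and 0.120, each over 0.1. Replicates 2 and 3 correlated as well when crossed (0.113 and 0.114). The check thus sets replicate 1 apart from replicates 2 and 3 in both groups. It cannot show that the replicate numbers pair the libraries, since replicates 2 and 3 are not told apart. The test itself had no block, and a fit with the replicate block was an alternative.

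The members and lists were chosen with earlier results of these data known. Always named were the 10 genes and SRMS, and in each list up to 3 genes that rose and 3 that fell with the smallest adjusted p; EIF2AK4, BTRC, PSPH and the markers were named beside them after their values were seen. A marker and a profile neighbour are not reported here, and the PBS samples are not analysed here.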

Additional observations from a re-analysis of the deposited data

How the results depend on the processing

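Of 190 fold changes of the 10 genes under the 19 alternatives, 173 kept their direction and their side of the threshold. With the libraries aligned on their median, 6254 genes rose and 2510 fell (3736 and 4233 with the authors' scaling), and 18 of the other pathway genes fell against 36. TRIB3 changed sign there (0.011) and with quantile scaling (0.0031). With the length and GC trend removed and no block, 3 of the 10 genes rose against 6. The log2 fold change of SRMS was 0.52 and called with the replicate block, 0.24 and not called with that block and the length and GC trend removed, 0.51 and called without replicate 1 of both groups, and 0.23 to 0.84 with single libraries left out. Without removal of the length and GC trend, the block changed no other call of the 10 genes than that of TRIB3. With that trend removed, the block instead changed the calls of PPP1R15A, PSAT1 and VLDLR. Of 418 counts for single lists, 52 moved by over 1.5 times, 11 of them with median alignment; the cause was not tested. PSAT1 also missed the threshold without the mean-variance trend (limma adjusted p = 0.0949). SRMS gave no value among genes with a mean log2 value of at least 1, where it was filtered out. CHAC1, VLDLR, DDIT4 and DDIT3, on 135 to 676 reads per library, had the widest intervals of the 10, but without the mean-variance trend that of TRIB3 was wider than those of VLDLR, DDIT4 and DDIT3.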
